A study of Mus musculus with 27 samples.

Results

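Lipopolysaccharide (LPS), the outer membrane component of Gram-negative bacteria, is sensed by a small set of proteins, and the mRNA levels of 9 of their genes are described here in alveolar macrophages. The genes were taken by symbol: Lbp, Cd14, Ly96, Tlr4 and Tlr2 for binding and sensing, Myd88, Ticam1 and Ticam2 for passing the signal on, and Irak3 for restraining it. All 9 were matched to a row of the 38124 genes counted, and all 9 passed the filter on low counts that left 13599 genes for testing. The rule that picks them goes by name and uses no measured value, but the group of genes was proposed with earlier results of these data known.

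The samples were 27 libraries of polyadenylated RNA from macrophages of C57B/6 mice aged 8 to 14 weeks, washed from the lung and sorted on the surface integrins CD11b and CD11c. Recruited macrophages (CD11c-CD11b+) came from days 3, 6, 9 and 12 after 20 ng of LPS in 50 µL of saline had been put into the trachea. Resident macrophages (CD11c+CD11b-) came from the same 4 days and, as day 0, from untreated mice. Each of the 9 groups had n = 3 libraries, of 11093216 to 18299674 counts. No genotype other than the strain is given, the populations are defined by the sort and not by a lineage label, and recruited cells have no day 0. The labels do not say whether libraries of a group came from separate mice. If they did not, the p-values measure the spread between these samples, which may be technical. The series title asks how the origin of the cells sets the resident and recruited populations apart.

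In textbook outline, LPS-binding protein (Lbp) lifts LPS from bacterial membranes and hands it to CD14, which passes it to a receptor made of TLR4 and its co-receptor MD-2, the product of Ly96. TLR4 at the cell surface signals through MyD88 towards NF-kB and inflammatory cytokines. From endosomes it signals through TRIF (Ticam1), bridged by TRAM (Ticam2), towards type I interferon genes. TLR2 senses bacterial lipoproteins, also uses CD14 and MyD88, and is itself induced by inflammatory stimuli. IRAK-M (Irak3) is a kinase relative that slows signalling downstream of MyD88 and is known from macrophages that have become tolerant to LPS.

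The RefSeq promoter table (GRCm38.p6, 250 bases before to 50 after each gene start) held windows for 4 of the 9 genes. They are printed because 3 of these genes, Tlr2, Myd88 and Irak3, were highest on day 3 in both populations, while Ticam1 had its highest resident mean on day 6. Capitals mark matches, on either strand, to the NF-kB consensus, to the AP-1 site TGANTCA, to the core of the interferon-stimulated response element, GAAANNGAA, or to the PU.1 core GAGGAA.
Tlr2, chr3:83841559-83841858, minus strand: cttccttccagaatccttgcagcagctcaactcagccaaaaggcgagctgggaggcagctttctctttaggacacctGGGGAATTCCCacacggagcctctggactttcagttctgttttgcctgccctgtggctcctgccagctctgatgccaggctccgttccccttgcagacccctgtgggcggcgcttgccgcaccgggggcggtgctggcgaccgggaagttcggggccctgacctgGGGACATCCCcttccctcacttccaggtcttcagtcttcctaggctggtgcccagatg
Myd88, chr9:119339969-119340268, minus strand: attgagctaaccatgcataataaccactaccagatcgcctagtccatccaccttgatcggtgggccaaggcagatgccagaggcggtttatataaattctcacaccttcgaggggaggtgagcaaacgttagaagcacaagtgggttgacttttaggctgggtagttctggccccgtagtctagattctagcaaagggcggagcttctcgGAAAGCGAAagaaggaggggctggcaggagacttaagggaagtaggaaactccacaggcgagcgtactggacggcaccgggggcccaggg
Irak3, chr10:120202081-120202380, minus strand: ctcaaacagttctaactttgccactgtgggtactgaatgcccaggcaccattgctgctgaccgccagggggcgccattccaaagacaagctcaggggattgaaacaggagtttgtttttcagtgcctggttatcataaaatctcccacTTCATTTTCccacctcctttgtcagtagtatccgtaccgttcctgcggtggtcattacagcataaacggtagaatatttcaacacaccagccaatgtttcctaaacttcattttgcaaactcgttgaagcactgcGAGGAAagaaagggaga
Ticam1, chr17:56276718-56277017, minus strand: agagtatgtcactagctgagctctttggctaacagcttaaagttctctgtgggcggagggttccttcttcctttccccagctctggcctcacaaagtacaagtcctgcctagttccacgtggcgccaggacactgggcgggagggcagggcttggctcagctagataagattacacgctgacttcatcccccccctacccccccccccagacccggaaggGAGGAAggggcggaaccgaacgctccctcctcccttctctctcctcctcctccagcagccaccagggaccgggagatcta

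The Tlr2 window held 3 matches to the NF-kB consensus, of which 2 overlap in the run GGGGAATTCCC that begins 173 bases before the start, and the other, GGGACATCCC, begins 8 bases before it. Of all 32851 windows of the same length in the table, 4.51% held such a match. The Myd88 window held the interferon element core as GAAAGCGAA, 40 bases before the start, a motif found in 8.56% of windows. The Irak3 window held the same core on the other strand as TTCATTTTC, and a PU.1 core after the start, a motif found in 28.3% of windows. A second Irak3 window in the table, for a start further downstream, held none of these motifs. The Ticam1 window held the PU.1 core GAGGAA, 30 bases before the start. No AP-1 match, present in 7.81% of all windows, was found in these windows. The motifs were chosen after the sequences were seen, and a match is a run of letters and not a measured binding site.

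On each day after LPS the transcripts of the sort markers differed between the populations in the direction of the labels. Neither transcript was absent from the population sorted as negative for its protein. Itgam, which encodes CD11b, averaged 3021, 2208, 1808 and 1025 CPM (counts relative to the effective library size after TMM) in recruited cells on days 3, 6, 9 and 12, and 6.92, 398, 46.4, 20.99 and 10.7 CPM in resident cells on days 0, 3, 6, 9 and 12. Siglecf, a defining gene of resident alveolar macrophages, averaged 5.31, 19.6, 34.2 and 61.9 CPM in recruited cells, and 438, 193, 501, 508 and 521 CPM in resident cells. Itgax, which encodes CD11c, averaged 218.5, 302, 630.3 and 1310 CPM in recruited cells, which were sorted as CD11c-, and 1817, 1375, 2127, 2070 and 2272 CPM in resident cells. In these 3 genes recruited cells came nearer to the resident levels on the later days, and resident cells nearer to the recruited levels on day 3. Of the 12 resident markers, Marco, Car4, Chil3 and Krt79 averaged higher in resident cells on day 3 than on day 0, away from the recruited level. The others averaged lower. Marco went from 382 to 1250 CPM, and in recruited cells it averaged 44.1 CPM on day 3 and 27.7 CPM on day 12. The 14 neutrophil markers summed to 528 to 1096 CPM in recruited and 235 to 276 CPM in resident libraries on day 3, with Ly6g at 0.152 CPM in recruited and 0.0854 CPM in resident cells. On later days the same sum was 284 to 446 CPM in recruited and 117 to 173 CPM in resident libraries, with Ly6g at 0. In recruited cells on day 12 most of it was Csf3r and Mmp8, with 150 and 181 CPM, while S100a9 averaged 0.675 CPM. The later sum is therefore no measure of neutrophils. The 8 epithelial markers summed to 12.6 to 55.9 CPM in recruited and 71.9 to 207 CPM in resident libraries. Most of the resident sum was Epcam and Cdh1, with 86.9 and 86.5 CPM on day 0 and 43.9 and 55.1 CPM on day 12. On days 9 and 12, Epcam, Cdh1 and Foxj1 averaged lower in recruited cells, and Sftpc, Sftpb, Scgb1a1, Krt18 and Ager averaged higher. The sum is therefore no measure of epithelial cells. Lymphocyte, dendritic, endothelial and stromal marker sums lay below the neutrophil sum in each library. The 5 red cell genes summed to 194 CPM in recruited and 144 CPM in resident cells in replicate 3 of day 9. In all other libraries they summed to at most 8.03 CPM. The part of such markers in the differences below was not tested. In bulk RNA, fewer cells of a type and less RNA per cell cannot be told apart.

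Replicate 2 of day 9 and replicate 1 of day 12 stood apart, in both populations. In the recruited cells their 11 monocyte-derived markers summed to 28690 and 25700 CPM, against 11710 to 15750 CPM in the other 4, and their 6 general macrophage markers to 53000 and 58060 CPM, against 23610 to 31660 CPM. In the resident cells the general macrophage markers summed to 42660 and 43760 CPM, against 25640 to 28480 CPM in the other 4. The list of monocyte-derived markers summed to 27050 and 16200 CPM, against 16800 to 21220 CPM. That list holds Chil3, which is also in the list of resident markers. Chil3 averaged 22000 and 16700 CPM in resident cells on days 9 and 12, so it made up nearly all of the resident sum. In recruited cells it averaged 3660 and 5410 CPM on these days. There Apoe, at 12100 and 9990 CPM, was the largest part of the monocyte-derived sum. Lyz2 averaged 30700 and 36400 CPM in recruited and 29900 and 29600 CPM in resident cells, so it made up most of the general macrophage sum. The sums therefore do not speak for each marker of their list. In the deposited table of unassigned reads the columns of these 4 libraries carry the numbers 12, 13, 17 and 18. The nearest numbers of other libraries are 9 and 19, so there is no gap above 18. The meaning of the numbers is not given, and their grouping into number runs, used below as a covariate, was chosen here. These 4 libraries also had the lowest share of reads outside genes, 6.77% to 7.06% against 8.08% to 26.5% in the others. Calls gained or lost without both recruited libraries, or without all 4, are given with the genes.

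**Figure D1:**
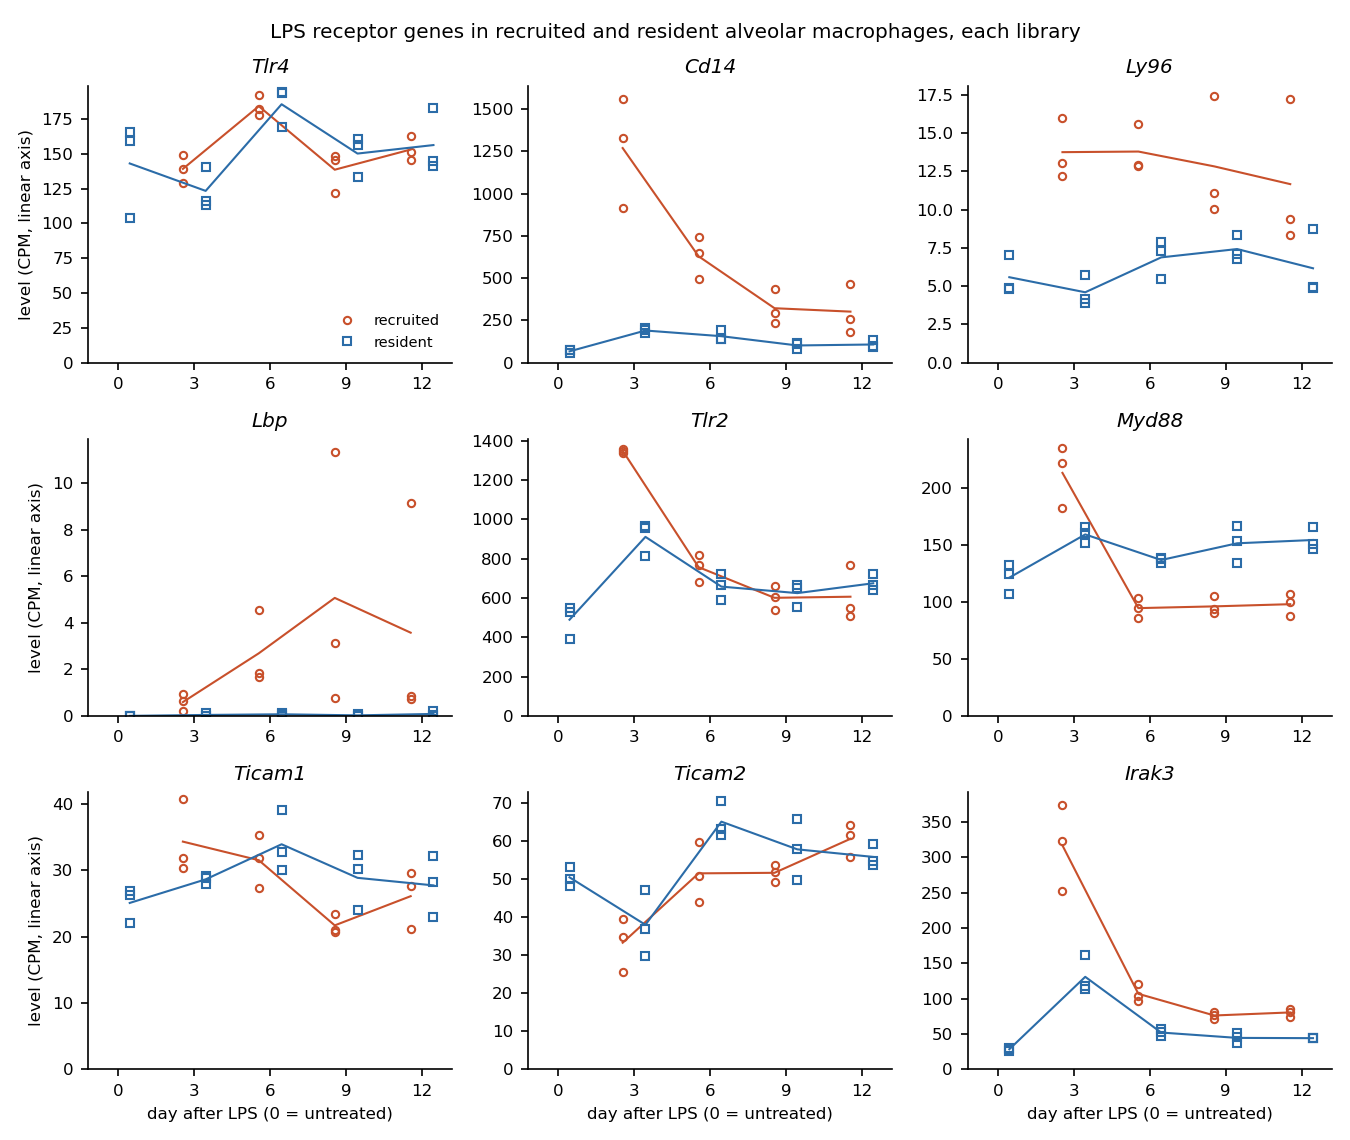
Levels of the 9 genes in each library, in CPM on linear axes, against the day after LPS, with day 0 untreated. Open circles are recruited and open squares resident libraries (n = 3 per group), drawn slightly left and right of their day, and lines join group means. The Tlr4 libraries of both populations overlap on each day, the means of Cd14, Ly96, Lbp and Irak3 lie higher in recruited cells on each day, and Myd88 crosses between days 3 and 6.

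Per length of transcript, so that genes can be compared, the untreated resident cells had most Tlr2 mRNA (162 CPM per kb of exon), then Myd88 (47.2), Cd14 (38.6) and Tlr4 (25.7). Ticam2 (8.70), Ticam1 (8.39), Irak3 (7.64) and Ly96 (5.47) followed, and Lbp had no count. In recruited cells on day 3 the order of levels per kb was Cd14 (733), Tlr2 (448), Irak3 (86.3), Myd88 (82.9), Tlr4 (25.04), Ly96 (13.5), Ticam1 (11.5), Ticam2 (5.74) and Lbp (0.123). Cd14 and Irak3 thus stood nearer the front of the list than in untreated resident cells, with Tlr4 at a similar level in both.

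Averaged over days 3 to 12, 5 of the 9 genes differed between recruited and resident cells at an adjusted p under 0.05, 4 higher (Lbp, Cd14, Ly96, Irak3) and 1 lower (Myd88), where 60.3% of all tested genes did. The median log2 change of the 9 was 0.14 and that of all tested genes 0.02. On day 3 it was 5 genes, all higher, beside 46.6% of all genes, and on day 6 it was 4 higher and 1 lower, beside 35% of all genes. On day 9, 4 were higher and 2 lower, beside 32%, and on day 12, 4 higher and 1 lower, beside 27.3%. The count stayed at 5 or 6 of 9 while the share of all genes called was smaller on the later days. With 9 genes chosen by name nothing is read from these counts, and the genes are described one by one. Tests are edgeR quasi-likelihood F tests with Benjamini-Hochberg adjustment over all 13599 genes, and changes are log2 ratios ± SE.

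**Figure D2:**
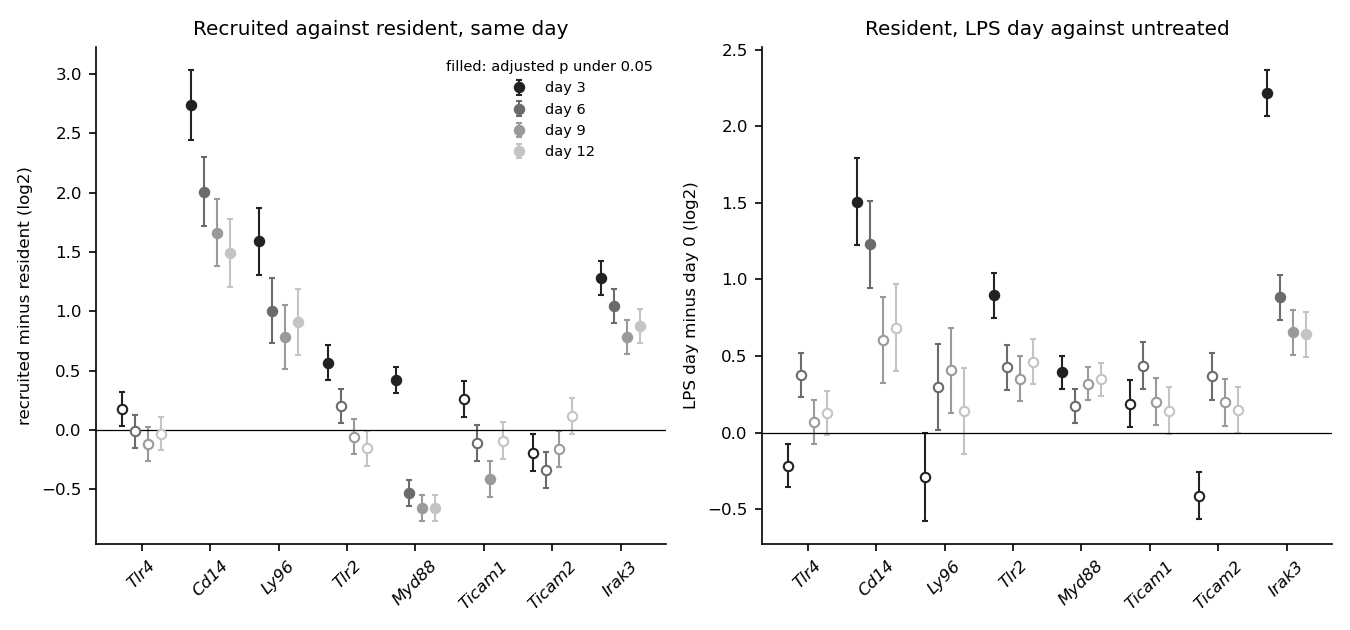
Log2 changes ± SE of 8 genes (Lbp is left out because resident cells had 0 to 4 counts per group), for recruited minus resident cells on days 3 to 12 (left) and for resident cells on each day minus day 0 (right). Filled points have an adjusted p under 0.05. Cd14, Ly96, Myd88 and Irak3 are filled on all 4 days on the left, and Irak3 is the gene filled on all 4 days on the right.

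Tlr4 (ENSMUSG00000039005, chromosome 4, 66827584 to 66930284, GRCm38, plus strand), the signalling receptor itself, was the gene that differed least between the populations. Recruited cells had 149, 139 and 129 CPM on day 3 and 163, 151 and 145 CPM on day 12. Resident cells had 113, 141 and 116 CPM on day 3, 183, 145 and 141 CPM on day 12, and 104, 159 and 166 CPM when untreated. The libraries of both populations overlapped on each day, and in the order of the 9 group means all 8 neighbouring pairs overlapped. The average difference was 0.00 ± 0.07 (adjusted p = 0.967), with a 95% interval of -0.13 to 0.14, so a change of more than about 0.14 on the log2 scale lies outside it. Of its day comparisons 1 passed the test: recruited cells on day 6, with 192, 182 and 178 CPM, lay 0.40 ± 0.14 above those on day 3 (adjusted p = 0.0326). That call was lost without replicate 2 or 3 of recruited day 3 (adjusted p = 0.074 and 0.118) and without replicate 1 or 2 of recruited day 6 (0.082 and 0.065). Resident day 6 had 169, 193 and 194 CPM, a level like that of recruited day 6.

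Ly96 (ENSMUSG00000025779, chromosome 1, 16688051 to 16709611, plus strand), which encodes MD-2, the LPS-binding partner without which TLR4 does not respond to LPS, was higher in recruited cells. On day 3 it had 16.0, 13.04 and 12.2 CPM in recruited cells, against 4.14, 5.76 and 3.91 CPM in resident cells. On day 6 it had 15.6, 12.9 and 12.9 CPM in recruited cells, against 7.86, 7.30 and 5.48 CPM in resident cells. The populations did not overlap on these days, and the differences were 1.59 ± 0.28 and 1.00 ± 0.27 (adjusted p = 6.5e-05 and 0.00563). On day 9 recruited cells had 11.1, 17.4 and 10.03 CPM and resident cells 7.12, 8.36 and 6.80 CPM, and on day 12 recruited cells had 17.2, 8.38 and 9.40 CPM and resident cells 8.72, 4.86 and 4.92 CPM. The highest recruited values on both days are those of the libraries that stood apart, and on day 12 the populations overlapped. Within each pair of equal replicate number on these 2 days the recruited library was the higher one. With all libraries the differences were 0.79 ± 0.27 on day 9 and 0.91 ± 0.27 on day 12 (adjusted p = 0.0281 and 0.0155), and with 1 block per day and replicate number they were 0.76 and 0.91 (adjusted p = 0.00158 and 0.000612). Without both recruited libraries that stood apart they were 0.51 and 0.54, with adjusted p = 0.101 and 0.114, no longer past the threshold. Without all 4 libraries that stood apart, so with the resident partners left out too, they were 0.62 and 0.87 (adjusted p = 0.0408 and 0.00829). Leaving out resident replicate 1 or 3 of day 9 also ended the day 9 call (adjusted p = 0.0752 and 0.0924), and leaving out resident replicate 2 or 3 of day 12 ended the day 12 call (0.0798 and 0.0826). No comparison of days within a population passed the test for Ly96, with untreated resident cells at 7.01, 4.90 and 4.85 CPM. Recruited day 12 lay at -0.25 against day 3 (adjusted p = 0.496), and at -0.59 without all 4 libraries (adjusted p = 0.0243). The population difference changed by -0.68 ± 0.39 between days 3 and 12 (adjusted p = 0.267), by -1.02 without both recruited libraries (adjusted p = 0.0375) and by -0.67 without all 4 (adjusted p = 0.135).

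Cd14, the LPS-transferring coreceptor that can be tethered to the membrane or shed (ENSMUSG00000051439, chromosome 18, 36725067 to 36726798, minus strand), had the largest log2 difference of the 8 genes other than Lbp on each day. Recruited cells had 915, 1332 and 1562 CPM on day 3, 651, 743 and 494 CPM on day 6, 433, 237 and 296 CPM on day 9, and 184, 259 and 463 CPM on day 12. Resident cells had 55.2, 72.4 and 72.8 CPM when untreated, 176, 202 and 192 CPM on day 3, 141, 138 and 191 CPM on day 6, 78.8, 115 and 111 CPM on day 9, and 99.1, 90.9 and 132 CPM on day 12. Every recruited library lay above every resident library of its day. The difference was 2.74 ± 0.30 on day 3, 2.01 ± 0.29 on day 6, 1.66 ± 0.29 on day 9 and 1.49 ± 0.28 on day 12, each past the threshold under every alternative tried. In the order of the group means, recruited day 3 lay clear of recruited day 6 and that of recruited day 9, while recruited day 12 overlapped both recruited day 9 and resident day 3.

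Cd14 also changed with time in each population. In recruited cells it fell by 1.01 ± 0.28 on day 6, by 1.98 ± 0.29 on day 9 and by 2.07 ± 0.29 on day 12, each against day 3. In resident cells it was 1.51 ± 0.29 above day 0 on day 3 (adjusted p = 0.000583) and 1.23 ± 0.28 above it on day 6 (adjusted p = 0.0102). The day 6 call was lost without replicate 1 of day 0 (adjusted p = 0.0667) or replicate 3 of day 6 (0.0563). On days 9 and 12 the values were 0.61 ± 0.28 and 0.69 ± 0.28 above day 0 and did not pass the test (adjusted p = 0.294 and 0.304). Markers of recruited cells were also present in resident libraries of day 3: Ly6c2 averaged 50.1 CPM there, against 0.0839 CPM in untreated resident cells, with 1450 CPM in recruited cells on day 3. Their part in the resident rise was not tested. The difference between populations was smaller on day 12 than on day 3 by 1.25 on the log2 scale (change -1.25 ± 0.39, adjusted p = 0.039), and it was -0.94 without both recruited libraries that stood apart (adjusted p = 0.0746) and -0.99 without all 4 (0.094). That call was lost under 14 of the 36 alternatives, among them leaving out any 1 of 9 of the 12 libraries compared (adjusted p = 0.0568 to 0.106).

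Lbp (ENSMUSG00000016024, chromosome 2, 158306493 to 158332852, plus strand), best known as an acute phase protein of the liver that circulates in plasma, was near the limit of detection. Resident libraries held 0, 0 and 0 counts on day 0, 0, 0 and 2 on day 3, 2, 0 and 1 on day 6, 0, 1 and 0 on day 9, and 3, 0 and 1 on day 12. Recruited libraries held 3, 8 and 13 counts on day 3, 25, 18 and 66 on day 6, 15, 151 and 42 on day 9, and 102, 12 and 12 on day 12. Each recruited library had more than any resident library of its day. The 2 highest counts, 151 and 102, belonged to the libraries that stood apart.

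Over the group, recruited cells had 12.8 times the Lbp level of resident cells on day 3 (95% counting interval 3.18 to 112), 42.3 times on day 6 (14.1 to 208), 214 times on day 9 (38.0 to 8500) and 35.5 times on day 12 (13.5 to 132). These intervals cover counting error only. Without both recruited libraries that stood apart, the ratio was 82.1 on day 9 (14.2 to 3300) and 9.22 on day 12 (3.17 to 36.5). Against untreated resident cells, with no count, the recruited level was at least 8.63-fold higher on day 3 and at least 66.0-fold higher on day 9, taking 3 counts over the group as the floor. The day 9 bound was 25.3-fold without replicate 2 of recruited day 9. The adjusted p was 0.00537, 0.000743 and 0.00481 on days 6, 9 and 12. On day 3 it was 0.0982, and 0.00157 with 1 block per day and replicate number, 0.0143 without both recruited libraries that stood apart and 0.0159 without all 4. The day 12 call was lost without replicate 1 of recruited day 12 (adjusted p = 0.0743), and kept without both recruited libraries (0.0281). Against day 3, recruited cells had 7.65 times as much on day 9 (interval 5.0 to 12.2, adjusted p = 0.0215), and 2.93 times as much without replicate 2 of day 9 (1.79 to 4.94). The adjusted p was 0.0665 without both recruited libraries, 0.0621 without all 4, and 0.08, 0.0609 and 0.191 without replicate 1 or 2 of recruited day 3 or replicate 2 of recruited day 9. On day 6 they had 4.82 times the day 3 level (3.08 to 7.85), with adjusted p = 0.108, and 0.0125 without both recruited libraries or 0.0119 without all 4. Sftpc, a surfactant gene of alveolar epithelium, averaged 0.300, 0.711, 5.29 and 4.64 CPM in recruited cells on days 3, 6, 9 and 12, and its part in the Lbp counts was not tested.

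Tlr2 (ENSMUSG00000027995, chromosome 3, 83836272 to 83841767, minus strand) was higher in recruited cells on day 3 and close to the resident level afterwards. Recruited cells had 1338, 1359 and 1349 CPM on day 3, and resident cells 812, 954 and 966 CPM, with no overlap (0.57 ± 0.15, adjusted p = 0.00282). On day 6 recruited cells had 680.4, 820.1 and 769 CPM and resident cells 589.9, 663 and 719.5 CPM, on day 9 recruited cells 602.5, 661 and 539 CPM and resident cells 556, 668 and 650.1 CPM, and on day 12 recruited cells 506, 548 and 765 CPM and resident cells 639.5, 664 and 721 CPM. The populations overlapped on these 3 days, and the differences were 0.20 ± 0.15, -0.06 ± 0.15 and -0.15 ± 0.15, none past the threshold. The average over days was 0.14 ± 0.07 (adjusted p = 0.103), and it passed with the block per day and number (adjusted p = 0.0312) and without replicate 1 of recruited day 12 (0.17, adjusted p = 0.0395), but not without both recruited libraries (0.08) or all 4 (0.0932).

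In resident cells Tlr2 stood at 389, 529 and 549 CPM on day 0 and was 0.90 ± 0.15 higher on day 3 (adjusted p = 0.000132). On days 6, 9 and 12 it was 0.43, 0.35 and 0.46 above day 0, each ± 0.15 and not past the threshold. In recruited cells it fell by 0.83 ± 0.15, 1.17 ± 0.15 and 1.15 ± 0.15 on days 6, 9 and 12 against day 3. The population difference changed by -0.72 ± 0.21 between days 3 and 12 (adjusted p = 0.0228), by -0.56 without both recruited libraries that stood apart (adjusted p = 0.0619) and by -0.58 without all 4 (0.068). The call was also lost without resident day 3 replicate 1, resident day 12 replicate 3, or replicate 1 or 2 of recruited day 12 (adjusted p = 0.0564 to 0.0715).

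Myd88 (ENSMUSG00000032508, chromosome 9, 119335934 to 119341411, minus strand), the adaptor that TLR4 and TLR2 share, had opposite differences early and late. On day 3 recruited cells had 183, 222 and 236 CPM and resident cells 161, 166 and 152 CPM. On day 6 recruited cells had 86.0, 94.7 and 103.5 CPM and resident cells 134, 138 and 139 CPM. On day 12 recruited cells had 87.7, 107 and 99.97 CPM and resident cells 166, 151 and 146 CPM. The populations did not overlap on any day: all recruited libraries were higher on day 3 and all were lower on days 6, 9 and 12. The difference was 0.42 ± 0.11 on day 3 (adjusted p = 0.00303), then -0.53 ± 0.11, -0.66 ± 0.11 and -0.65 ± 0.11 on days 6, 9 and 12 (adjusted p = 0.000537, 6.28e-05 and 0.000105).

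Of the 9 genes, 1, Myd88, passed the test of whether the population difference varied over the 4 days (adjusted p = 0.000127), where 10.7% of all genes did. Between days 3 and 12 its difference changed by -1.08 ± 0.16 (adjusted p = 0.000103). With the block per day and number, Tlr2 (adjusted p = 0.00752) and Irak3 also passed that test. For the change between days 3 and 12, 3 of the 9 genes passed, all downwards (Myd88, Cd14 and Tlr2), beside 13.6% of all genes.

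Recruited Myd88 fell by 1.17 ± 0.11, 1.15 ± 0.11 and 1.12 ± 0.11 on days 6, 9 and 12 against day 3. Resident Myd88 was at 107, 132 and 125 CPM on day 0 and 0.39 ± 0.11 higher on day 3 (adjusted p = 0.0119), a call lost without replicate 1 of day 0 (adjusted p = 0.0669). On days 6, 9 and 12 resident Myd88 was 0.17, 0.32 and 0.35 above day 0, each ± 0.11. These values did not pass the test (adjusted p = 0.428, 0.12 and 0.14). Resident day 12 differed from day 3 by -0.05 ± 0.11, with a 95% interval of -0.26 to 0.17. Of the exon bases of Myd88, 11.3% overlap other annotated genes, of which Acaa1a lies on the opposite strand. Acaa1a itself was lower in recruited cells, with 75.0, 96.5 and 102 CPM on day 6 against 201, 187 and 186 CPM in resident cells, and the labels do not say how the counting treated strand.

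Ticam1 (ENSMUSG00000047123, chromosome 17, 56269319 to 56276786, minus strand), which encodes TRIF, varied little. Its group means were 21.7 to 34.4 CPM, and all 8 neighbouring pairs in their order overlapped. Recruited cells had 30.4, 40.8 and 31.9 CPM on day 3 and 20.7, 23.5 and 20.96 CPM on day 9. Resident cells had 28.8, 29.1 and 28 CPM on day 3 and 30.3, 24.1 and 32.3 CPM on day 9, and 26.4, 21.99 and 26.9 CPM when untreated. Recruited day 9 was 0.66 ± 0.15 below day 3 (adjusted p = 0.00183), with no overlap. The value on day 9 was also 0.41 ± 0.15 below resident cells (adjusted p = 0.0441), a call lost under 15 of the 36 alternatives (adjusted p up to 0.175), and recruited day 12 was 0.40 ± 0.15 below day 3 (adjusted p = 0.0453), a call lost under 23 of them (up to 0.247). The average difference was -0.09 (adjusted p = 0.342), and -0.19 without all 4 libraries that stood apart (adjusted p = 0.0363).

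Ticam2 (ENSMUSG00000056130, chromosome 18, 46557291 to 46574533, minus strand), which encodes TRAM, was the member lowest on day 3 in both populations. Recruited cells had 39.4, 34.7 and 25.5 CPM on day 3, 59.7, 50.7 and 44.0 CPM on day 6, 53.7, 49.3 and 51.8 CPM on day 9, and 64.2, 55.8 and 61.6 CPM on day 12. Resident cells had 53.1, 48.1 and 50.0 CPM on day 0, 47.2, 36.9 and 29.7 CPM on day 3, 70.5, 61.5 and 63.2 CPM on day 6, 57.9, 49.6 and 65.7 CPM on day 9, and 54.6, 53.6 and 59.1 CPM on day 12. Each later recruited library lay above each recruited library of day 3. Recruited Ticam2 was 0.63 ± 0.15, 0.64 ± 0.15 and 0.87 ± 0.15 above day 3 on days 6, 9 and 12 (adjusted p = 0.00297, 0.00237 and 9.6e-05), and resident Ticam2 was 0.56 ± 0.15 above day 3 on day 12 (adjusted p = 0.0105). Resident day 3 was 0.41 ± 0.15 below day 0 (adjusted p = 0.0535), just outside the threshold and inside it under 14 alternatives.

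Between populations Ticam2 did not pass the test on any day. The average difference was -0.14 ± 0.08 (95% interval -0.29 to 0.01, adjusted p = 0.108), and with the block per day and number the adjusted p was 0.0108. On day 6 the difference was -0.34 ± 0.15 (adjusted p = 0.0892, and 0.00545 with the block). The gene shares 14.5% of its exon bases with Tmed7 on the same strand, and Tmed7 averaged 127 to 146 CPM over the 9 groups.

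Irak3 (ENSMUSG00000020227, chromosome 10, 120141648 to 120202130, minus strand), the inhibitor, was higher in recruited cells on each day and stayed above the untreated level in resident cells to day 12. Recruited cells had 253, 323 and 375 CPM on day 3, 121, 103 and 96.3 CPM on day 6, 70.5, 80.8 and 76.7 CPM on day 9, and 81.0, 85.7 and 74.3 CPM on day 12. Resident cells had 26.2, 29.4 and 28.6 CPM on day 0, 113, 117 and 162 CPM on day 3, 56.5, 46.7 and 52.2 CPM on day 6, 36.8, 50.8 and 45.1 CPM on day 9, and 43.7, 44.4 and 43.4 CPM on day 12. The populations did not overlap on any day, and no resident library after LPS lay as low as an untreated one.

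The Irak3 difference between populations was 1.28 ± 0.14, 1.04 ± 0.14, 0.78 ± 0.14 and 0.87 ± 0.14 on days 3, 6, 9 and 12, each past the threshold under every alternative tried. In resident cells it was 2.22 ± 0.15 above day 0 on day 3 (adjusted p = 5.06e-10), 0.88 ± 0.15 on day 6 (0.000656), 0.66 ± 0.15 on day 9 (0.0126) and 0.64 ± 0.15 on day 12 (0.0236). The day 9 call was lost without replicate 1 of day 0 (adjusted p = 0.0764) or replicate 2 of day 9 (0.0667), with only the compared groups fitted (0.0729) and without all 4 libraries that stood apart (0.0604). The day 12 call was lost without those 4 (0.057), with scaling by library size alone (adjusted p = 0.0611) and without any 1 of the 6 libraries compared (0.0638 to 0.127). In recruited cells Irak3 fell by 1.57 ± 0.15, 2.06 ± 0.15 and 1.98 ± 0.15 on days 6, 9 and 12 against day 3. The test of whether the population difference varied over the 4 days gave an adjusted p of 0.328, and of 0.0346 with the block per day and number, while the change between days 3 and 12 was -0.40 ± 0.20 (adjusted p = 0.2, and 0.0262 with the block). Of its exon bases 5.22% overlap Tmbim4 on the opposite strand, which had 97.2, 93.7 and 82.8 CPM in recruited and 60.3, 55.3 and 63.6 CPM in resident cells on day 3.

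For resident cells against day 0, 4 of the 9 genes were higher on day 3 (Irak3, Cd14, Tlr2 and Myd88) and none lower, beside 23.8% of all genes called. On day 6 it was 2 (Irak3 and Cd14), beside 6.42%, and on days 9 and 12 it was 1, Irak3, beside 3.49% and 1.3%. These comparisons share the day 0 libraries. From day 3 to day 12, 3 resident genes fell (Irak3, Cd14 and Tlr2) and 1, Ticam2, rose, beside 24.2% of all genes. Of these, the Irak3 change was -1.58 ± 0.15 and was called under every alternative. Cd14 (-0.82 ± 0.28, adjusted p = 0.0369) and Tlr2 (-0.43 ± 0.15, adjusted p = 0.0343) each lost their calls without 5 of the 6 libraries of these days, left out in turn (adjusted p = 0.0552 to 0.13 for Cd14 and 0.052 to 0.122 for Tlr2). Ticam2 (0.56) lost its call without replicate 3 of day 3 (adjusted p = 0.0881). In recruited cells against day 3, which share the day 3 libraries, 2 genes were higher and 4 lower on day 6, beside 31.9%, then 2 higher and 5 lower on day 9, beside 36.3%, and 1 higher and 5 lower on day 12, beside 39.3%. The median change of the 9 on day 12 was -0.40, against 0.02 over all tested genes.

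**Figure D3:**
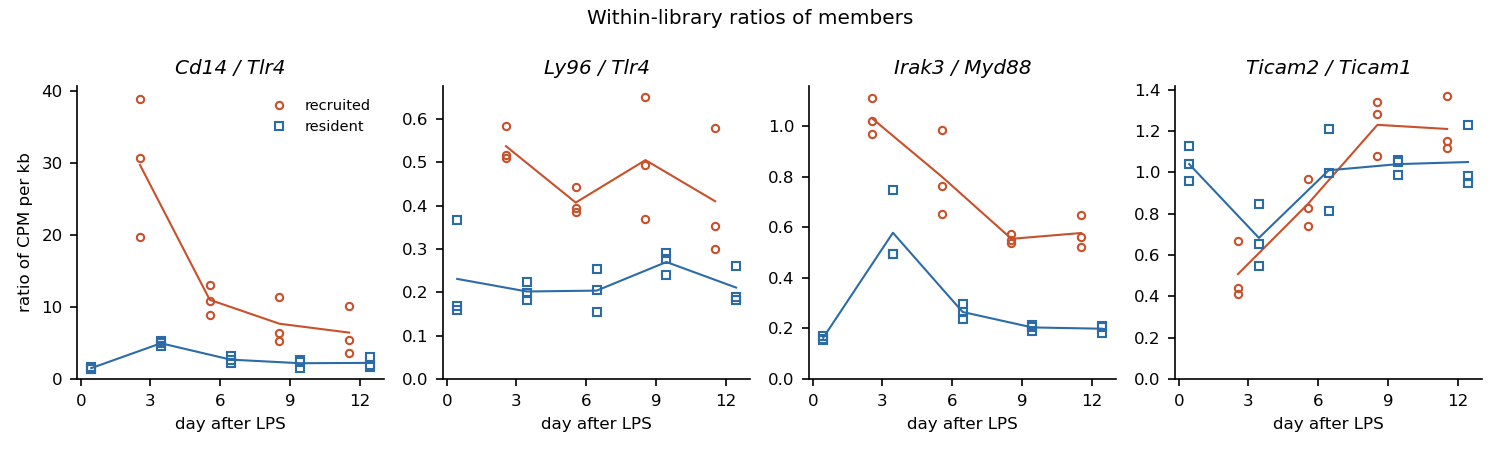
Ratios of CPM per kb within each library, for Cd14 to Tlr4, Ly96 to Tlr4, Irak3 to Myd88 and Ticam2 to Ticam1, against the day after LPS. Circles are recruited and squares resident libraries (n = 3 per group), drawn slightly left and right of their day, and lines join means. All recruited Cd14 to Tlr4 and Irak3 to Myd88 ratios lie above the resident ones of their day.

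Ratios within a library do not depend on its scaling. Cd14 mRNA per kb was 29.7 ± 9.63 times that of Tlr4 in recruited cells on day 3 and 6.45 ± 3.39 times on day 12, against 4.97 ± 0.349 and 2.25 ± 0.663 times in resident cells on those days and 1.52 ± 0.157 times in untreated ones (SD, n = 3 each). Ly96 was 0.537 ± 0.0406 of Tlr4 in recruited and 0.202 ± 0.0199 in resident cells on day 3, so that in both populations the mRNA of MD-2 was below that of its partner. Irak3 was 1.03 ± 0.0732 of Myd88 in recruited and 0.578 ± 0.145 in resident cells on day 3, and 0.577 ± 0.0642 in recruited and 0.199 ± 0.0131 in resident cells on day 12, against 0.163 ± 0.00798 in untreated cells. Ticam2 was 0.508 ± 0.142 of Ticam1 in recruited and 0.683 ± 0.151 in resident cells on day 3, and 1.21 ± 0.134 and 1.05 ± 0.154 on day 12. Levels of mRNA do not give the ratio of the proteins.

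The remaining pathway was read from 6 lists, which hold none of the 9 genes and were written with earlier results of these data known. Of 29 signalling genes, 17 were higher and 3 lower in recruited than in resident cells on day 3 (median 0.44), beside 46.6% of all genes called, and 6 were higher and 4 lower on day 12 (median -0.04), beside 27.3%. Irf5, a transcription factor used by MyD88 signalling, averaged 317 CPM in recruited and 126 CPM in resident cells on day 3, a log2 difference of 1.33 ± 0.11. Pik3ap1, an adaptor that links TLRs to PI3 kinase, had a log2 difference of -1.37 ± 0.30 on day 12, with 411 CPM in recruited and 1070 CPM in resident cells. Against day 0, 10 signalling genes were higher and 3 lower in resident cells on day 3, beside 23.8% of all genes.

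Of 10 other Toll-like receptors, 6 were higher and 2 lower in recruited cells on day 3 (median 0.66), beside 46.6% of all genes. Tlr1, which pairs with TLR2, averaged 86.9 CPM in recruited and 2.20 CPM in resident cells on day 3, and 19.4 and 0.537 CPM on day 12. Tlr6, the other TLR2 partner, averaged 44.4 CPM in recruited and 20.2 CPM in resident cells on day 3 (1.14 ± 0.14), and 21 and 18.9 CPM on day 12. Tlr5, the flagellin receptor, was the reverse, with 4.55 CPM in recruited and 19.2 CPM in resident cells on day 3, and 66.4 CPM in untreated cells. Of 17 genes for LPS handling and receptor folding, 8 were higher and 4 lower in recruited cells on day 3 (median 0.24), beside the same 46.6%. Aoah, the enzyme that removes acyl chains from LPS, averaged 303 CPM in recruited and 59.6 CPM in resident cells on day 3, and 3.31 CPM in untreated cells. Ly86, which encodes MD-1, the MD-2 relative bound to CD180, averaged 88.5 CPM in recruited and 18.1 CPM in resident cells on day 12 (2.29 ± 0.23).

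Of 21 negative regulators tested (of 23 listed), 12 were higher and 1 lower in recruited cells on day 3 (median 0.94), beside 46.6% of all genes, and 5 were higher on day 12 (median 0.19), beside 27.3%. Socs1, an inhibitor of cytokine and TLR signalling, averaged 70.8 CPM in recruited and 19.8 CPM in resident cells on day 3, and 0.651 CPM in untreated cells. In resident cells against day 0, 9 rose and 1 fell on day 3, beside 23.8% of all genes, and on day 12, beside 1.3%, the 2 called, both higher, were Nlrc5 (1.11 ± 0.23) and Tnip1 (0.60 ± 0.13), as Irak3 was. Of 17 genes typical of MyD88 output, 13 were higher and 1 lower in recruited cells on day 3 (median 2.42), and of 10 typical of TRIF output tested (of 11), 9 were higher and none lower (median 2.28), beside 46.6% of all genes. On day 12, beside 27.3% of all genes, 8 MyD88-type genes were higher and 2 lower, with a median of 2.59. The median was 1.86 with group sums of 3 or fewer counts set at 3, and a change of 0 where both groups had so few. Several of these genes had an SD above their mean in recruited cells on day 12, which at n = 3 means 1 high library. Among them was Saa3 (70.9 ± 91.3 CPM), while Nos2 (1.99 ± 0.767 CPM) and Acod1 (8.79 ± 1.7 CPM) varied less. Of the 10 TRIF-type genes, edgeR called 0 on day 12 (0 at an unadjusted p under 0.05, and 0 with DESeq2), with a median of -0.08. Cxcl10, an interferon-induced chemokine, averaged 454 CPM in recruited and 138 CPM in resident cells on day 3, and 1.19 CPM in recruited and 1.64 CPM in resident cells on day 12, below the 7.21 CPM of untreated cells (-2.15 ± 0.43, adjusted p = 0.012, for resident day 12 against day 0).

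**Figure D4:**
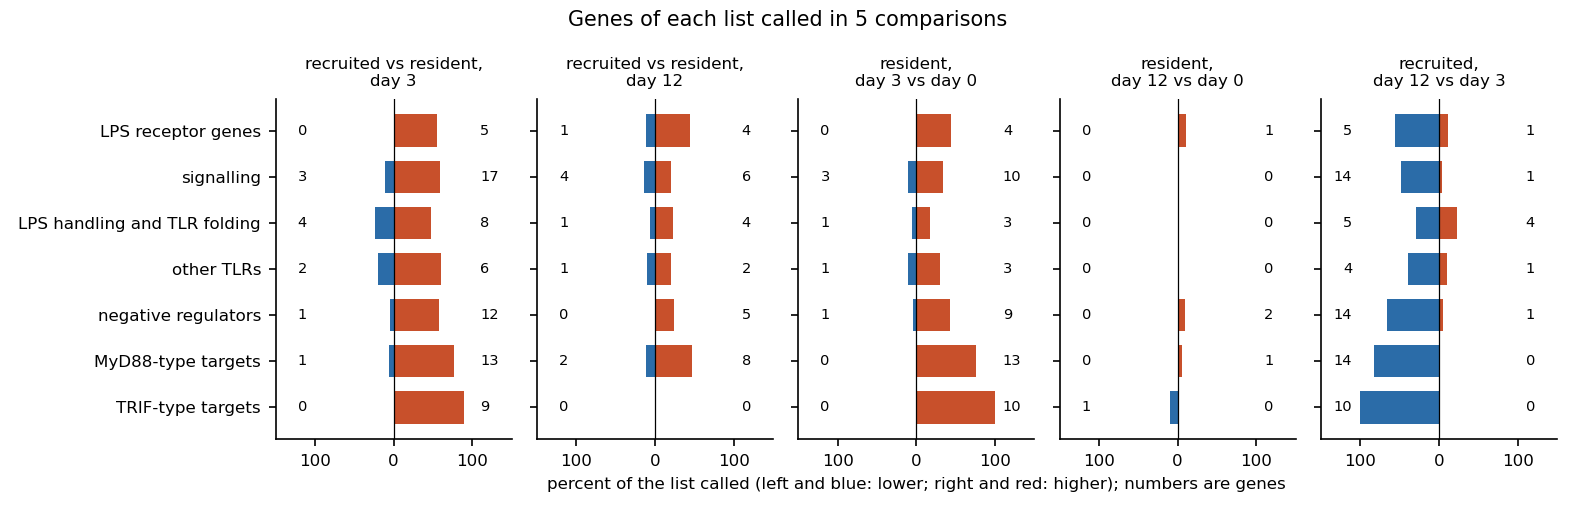
Percent of each list called at an adjusted p under 0.05 in 5 comparisons, with lower genes to the left in blue and higher genes to the right in red. Numbers give the genes in each direction, out of 9 LPS receptor genes, 29 signalling, 17 handling and folding, 10 other Toll-like receptor, 21 regulator, 17 MyD88-type and 10 TRIF-type genes. All 10 TRIF-type genes are higher in resident cells on day 3 than on day 0, beside 23.8% of all tested genes called in either direction. All 10 are lower in recruited cells on day 12 than on day 3, beside 39.3%.

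Across the 27 libraries, log2 CPM of Cd14 and Irak3 went together with a Pearson r of 0.885, Tlr2 and Irak3 with 0.855, and Ly96 and Lbp with 0.808, while Tlr2 and Ticam2 had -0.719. These values describe libraries that share groups and days. The genes most like each member, among 7899 candidates, were Spata13 (0.972), Slamf8 (0.971) and Fnbp1l (0.968) for Irak3, and Cers6 (0.966), Sh3bp1 (0.966) and Lipe (0.961) for Cd14. For Tlr2 they were N4bp1 (0.927), Tnip1 (0.917) and Csf2rb2 (0.914), for Myd88 Dbnl (0.946), for Ly96 Sec14l1 (0.951) and for Lbp Ptpra (0.964). Tlr4 and Ticam1, the members that varied least, had Atrn (0.824) and Pxn (0.778).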

How the data were processed

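The main deposited table holds 1 column of raw counts per library, for Ensembl gene IDs. Build mm10 and the tools HTSeq 0.6.0, R 3.1.0, DESeq2 1.4.5 and STAR 2.4.0a are named in the submitters' processing notes, with no role for any of them. No strand setting is named there. Libraries were made with a stranded mRNA kit and run on an Ion Proton, per the labels' protocols. A second deposited table of counts of unassigned reads (6.77% to 26.5% outside genes) stayed out of the tests.

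Symbols, positions and exon lengths came from GENCODE M21. edgeR 4.0.16 in R 4.3.3 was run on all 27 libraries with 1 mean per group (18 residual degrees of freedom): filterByExpr (minimum count 10, total 15), TMM scaling, robust dispersions, two-sided quasi-likelihood F tests, Benjamini-Hochberg adjustment and a threshold of 0.05. SEs came from the F statistic, and log2 CPM used a prior count of 2. DESeq2 1.42.0, other scalings and filters, blocks and left-out libraries were alternatives, and the fit was tested on simulated data. For groups of n = 3, the smallest p of an exact permutation test is 0.1.

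The members and lists were chosen with earlier results of these data known. All members are named. Genes named from the lists are a part of the up to 4 non-overlapping genes of smallest adjusted p per comparison. The others are not named, except Marco as a resident marker and Tmed7 as a neighbour of Ticam2. Tlr5 was among these in other comparisons of the populations, but not on day 3. Genes most like a member were the 3 of highest r. Same-day libraries of equal number deviated together in 12 of 12 pairs (r 0.17 to 0.52 across genes), so the pairing comes from the data and not the labels.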

Additional observations from a re-analysis of the deposited data

Results flagged for a closer look

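The difference between recruited and resident cells changed with time for 3 genes, by a test of that change in the main fit. Irak3 did not pass in the main fit and passed with the block per day and number. For Myd88 the test over all 4 days gave an adjusted p of 0.000127, and the difference changed by -1.08 between days 3 and 12, with opposite signs on the 2 days. For Tlr2 it changed by -0.72, and the difference itself passed the test on day 3 and not on day 12. For Cd14 it changed by -1.25, with recruited cells above resident cells throughout. The Tlr2 and Cd14 changes, but not that of Myd88, did not pass the threshold without the recruited libraries of day 9 replicate 2 and day 12 replicate 1, or without these and their resident partners. What these changes come from was not tested.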

How the results depend on the processing

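Of 135 single values, 61 passed the threshold, and 44 of these did so under each of the 36 alternatives, 2 of them added after seeing the data (leaving out both recruited libraries that stood apart, day 9 replicate 2 and day 12 replicate 1, or these and the resident libraries of the same days and numbers, 4 in all). No value that passed the threshold changed its sign. Counts of genes called moved as follows. Recruited against resident day 12 had 3 with only the compared groups fitted. Resident day 9 against day 0 had 3 with the number run as a covariate, 0 with only the compared groups, 0 without all 4 libraries and 3 with the replicate number as a block across days. Resident day 12 against day 0 had 0 with library size alone, 0 without all 4 and 3 with that block. The test over 4 days had 3 with the number run, 3 with the block per day and number and 2 with DESeq2. The change between days 3 and 12 had 1 with library size alone and 1 without all 4. Leaving out 1 library gave 3 to 5 for recruited against resident day 12, 1 to 3 for resident day 6, 0 to 1 for resident days 9 and 12 against day 0, 1 to 5 for resident day 12 against day 3, 1 to 3 for the test over 4 days and 1 to 3 for the change. The cause was not tested. Most pairs of equal replicate number on different days did not deviate together (r over 0.1 in 4 of 18 recruited and 10 of 30 resident pairs). Their r was -0.43 to 0.28 in recruited and -0.36 to 0.29 in resident cells. Equal replicate numbers were not always of 1 number run, so these pairs cannot show that days share no block. The block across days is given here only. With it recruited Cd14 on day 6 against day 3 did not pass (-0.97, adjusted p = 0.0847). The block per day and number ended no call. Library size alone shifted the median of all genes by -0.12 for recruited against resident day 3, by 0.121 for recruited day 9 against day 3 and by 0.119 for the change.

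None of the values that changed sign was called. Tlr4 averaged over days became -0.021 with library size alone and -0.019 without both libraries (leaving out 1 library, -0.016 to 0.043). Tlr4 on day 6 became 0.0085 with DESeq2 size factors, 0.0016 without a filter, 0.011 with only the compared groups, 0.00040 without both libraries, 0.00041 without all 4 and 0.0085 with DESeq2 (-0.074 to 0.022). For resident day 9 against day 0 Tlr4 became -0.031 with library size alone (-0.11 to 0.19). For recruited day 9 against day 3 Tlr4 became 0.0025, 0.11, 0.0061, 0.00054, 0.0069, 0.0057 and 0.0022 with DESeq2 size factors, library size alone, no filter, only the compared groups, all 4 left out, the block and DESeq2 (-0.059 to 0.11). Without all 4, Tlr4 became 0.062 on day 12 and -0.017 for resident day 12 against day 0 (-0.10 to 0.13 and -0.057 to 0.25). For resident day 12 against day 0 Ly96 became -0.073 with the number run and -0.21 without all 4 (-0.23 to 0.34). Ly96 spanned -0.074 to 0.13 for recruited day 6 and -0.37 to 0.042 for recruited day 9, both against day 3. Tlr2 spanned -0.13 to 0.016 on day 9. Ticam1 spanned -0.20 to 0.0062 on day 6, -0.18 to 0.044 on day 12, -0.17 to 0.056 (0.057 without all 4) for resident day 12 and -0.21 to 0.017 for recruited day 6, both against day 3. For Lbp, given as adjusted p, resident day 12 against day 3 had 0.695 with the number run and 0.90 without all 4 (0.595 to 0.952), resident days 3 and 9 against day 0 had 0.479 to 1 and 0.808 to 1 (day 9: 1 without all 4), and the change had 0.903 without both libraries (0.647 to 0.921).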
